A study of Mus musculus with 60 samples.

Results

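The gene expression of 2 independently derived wild-type mouse embryonic stem cell lines, V19 and 1A, was compared after 96 h in 2i. The comparison used 6 of the 60 libraries of the series, namely 3 biological replicates of V19 wild type and 3 of 1A wild type, and the autosomal genes of chromosomes 1 to 19 with their raw read counts. Of 47501 autosomal genes listed, 14511 passed a filter on low counts and were tested, 13699 of them outside chromosome 8 and 812 on chromosome 8, which was read apart. Both lines were grown on gelatin without feeder cells being named, in medium with serum and LIF, a cytokine that sustains self-renewal. 2i is the pair of the GSK3 inhibitor CHIR99021 at 3 µM and the MEK inhibitor PD0325901 at 1 µM, added to that medium and renewed each day. Neither line carried a mutation by its label. The 2 other lines of the series, 1A without Ezh2 and 1A without Eed, are used below for levels. All 60 libraries, theirs included, also entered the filter on low counts, the scaling and the shared estimate of spread behind the p-values. V19 and 1A are each 1 line and both wild type, so a difference between them cannot be told apart from any trait that separates those cell stocks. The labels do not say whether the biological replicates were separate thaws or parallel wells.

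Mouse embryonic stem cells in serum and LIF hold a mixed state in which MEK and ERK signalling favours differentiation. Blocking MEK and GSK3 moves them toward a more uniform naive state, close to the cells of the early epiblast. Such lines also differ by origin and by time in culture: some gain a whole chromosome, imprinted genes can lose their parental marks, and cells vary in how strongly they express cytoskeletal and keratin genes.

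The 6 libraries held 4310359 to 6125140 assigned reads over 19887 to 20653 genes. In V19, 1.23 to 1.67% of the reads were mitochondrial, in 1A 0.728 to 1.32%, ranges that overlapped. The part of this share in the results was not tested. Levels are given as CPM, read counts relative to the size of the library scaled by the trimmed mean of M-values (TMM), differences as log2 of V19 over 1A ± standard error with n = 3 libraries in each line, and adjusted p-values come from edgeR's quasi-likelihood test over all genes tested. Genes with an adjusted p under 0.05 are referred to as called. Ezh2 was at 215, 213 and 194 CPM in V19 and at 229, 220.1 and 216 CPM in 1A, and Eed, another subunit of Polycomb repressive complex 2, did not pass the test either (-0.10 ± 0.10, adjusted p = 0.64).

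Markers of embryonic stem cell identity were abundant in both lines. All 15 listed markers were tested, and their summed level was 9229 to 9267 CPM in V19 and 9573 to 10033 CPM in 1A. Of the 15, 3 were called higher and 2 lower, beside 4.26% higher and 3.2% lower over all autosomal genes tested. Their median was -0.03, and its sign changed among the alternatives (-0.09 to 0.01). Nanog, a core factor of the naive network, was 1 of the 3, at 1119, 1159 and 1214 CPM in V19 and at 913, 919 and 1034 CPM in 1A. The 2 lower markers were Sox2 and L1td1, the latter not called in 4 of 16 alternatives. Of 20 fibroblast and feeder markers 14 were tested and 0 were called, with 3 passing at an unadjusted p under 0.05 in edgeR's test and 0 called by DESeq2. Their summed level was 44.8 to 51.7 CPM in V19 and 49.2 to 54.0 CPM in 1A.

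Outside chromosome 8 the lines differed in 801 of 13699 genes (5.85%). Of these, 338 were higher in V19 (2.47%) and 463 were lower (3.38%), and the difference was at least 2-fold for 90 (0.657%) and 122 (0.891%). On chromosome 8, 282 of 812 genes were called (34.7%), 280 higher (34.5%) and 2 lower (0.246%). The median log2 difference was 0.35 on chromosome 8 and -0.012 over the other autosomes. The count of 801 depended on single libraries, as it was 486 without V19 replicate 2, 455 without V19 replicate 3, 524 without 1A replicate 1 and 448 without 1A replicate 2. Libraries of other groups enter the count through the shared estimate of spread. It was 1364 without the 6 libraries whose root mean square deviation from their group mean was over 0.3 on the log2 scale, namely V19 replicates 2 and 3 and 1A wild-type replicate 3 at 48 h, Eed knockout replicates 1 and 3 at 12 h and 1A wild-type replicate 1 at 24 h. It was 1445 without a set picked by whole groups after the data were seen, namely all libraries of V19 at 48 h and of both knockouts at 12 h, and the same 24 h library. That set holds libraries of low spread too, down to 0.17 for Ezh2 knockout replicate 2.

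**Figure D1:**
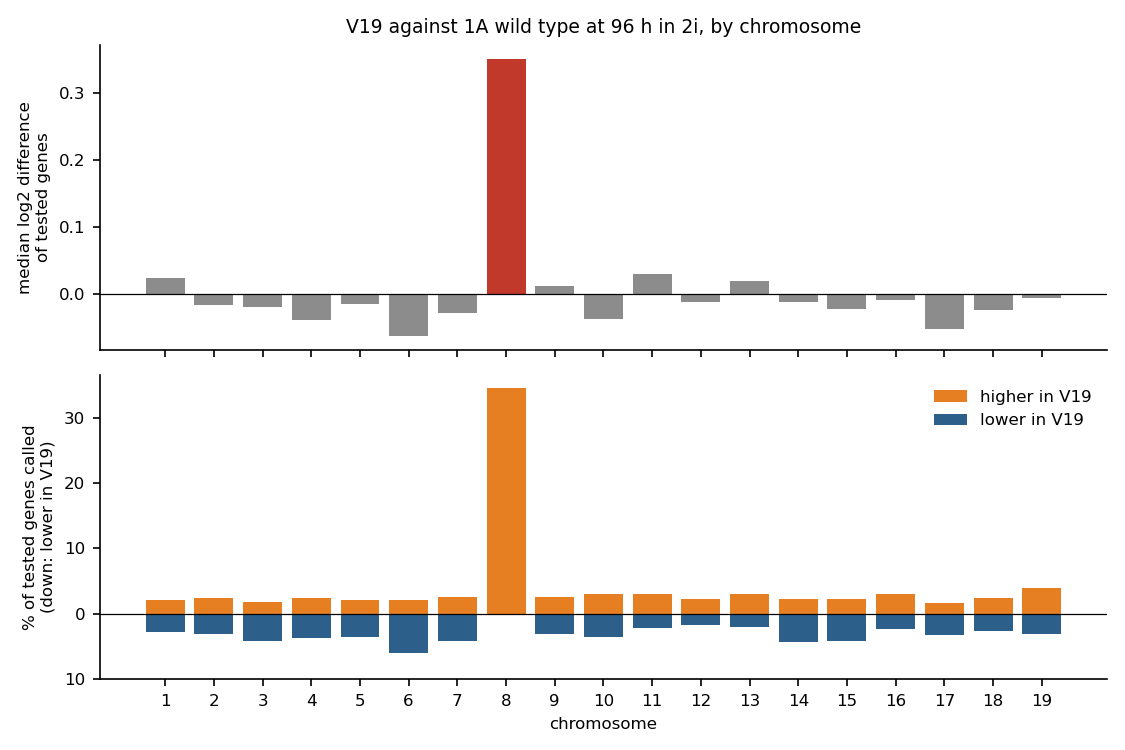
Median log2 difference of the tested genes (upper panel, V19 minus 1A) and percent of tested genes called (lower panel, higher in V19 drawn upward and lower in V19 drawn downward) for each autosome at 96 h in 2i. Chromosome 8 had a median of 0.35, and the medians of the 18 other chromosomes lay between -0.063 and 0.029.

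The genes with the lowest levels in V19 relative to 1A included keratins of simple epithelia. Keratins 8 and 18 pair to form intermediate filaments, as do keratins 7 and 19 with their partners, and all are used as markers of trophoblast and other early epithelia. Krt7, Krt8 and Krt18 lie on chromosome 15 (GRCm39, 101310284 to 101325687, 101905146 to 101912777 and 101936651 to 101940461). They were 3 consecutive tested genes, and all were called lower in V19. Their promoter windows are shown because these neighbours moved together, and that of Acta2 because it was the called contractile gene with the smallest p-value. The windows are RefSeq reference sequence of the build GRCm38.p6, 250 bases before to 50 after each start, 5′ to 3′ on the gene's strand. Capitals mark a TATA element (TATAA), a GC box (GGGCGG) or a TEAD element (GGAATG), each searched on both strands, and overlapping matches run together.
Krt7: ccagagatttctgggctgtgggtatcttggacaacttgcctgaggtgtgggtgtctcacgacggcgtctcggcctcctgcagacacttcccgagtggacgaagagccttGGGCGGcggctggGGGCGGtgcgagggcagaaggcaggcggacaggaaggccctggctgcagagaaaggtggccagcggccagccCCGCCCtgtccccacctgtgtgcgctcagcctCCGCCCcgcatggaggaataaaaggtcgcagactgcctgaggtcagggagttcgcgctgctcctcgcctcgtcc
Krt8: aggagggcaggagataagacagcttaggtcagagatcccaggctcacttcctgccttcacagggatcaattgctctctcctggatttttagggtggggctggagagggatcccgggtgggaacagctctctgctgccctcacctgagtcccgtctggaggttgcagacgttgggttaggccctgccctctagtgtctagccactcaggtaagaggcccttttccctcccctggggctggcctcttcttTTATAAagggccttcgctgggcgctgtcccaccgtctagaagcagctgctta
Krt18: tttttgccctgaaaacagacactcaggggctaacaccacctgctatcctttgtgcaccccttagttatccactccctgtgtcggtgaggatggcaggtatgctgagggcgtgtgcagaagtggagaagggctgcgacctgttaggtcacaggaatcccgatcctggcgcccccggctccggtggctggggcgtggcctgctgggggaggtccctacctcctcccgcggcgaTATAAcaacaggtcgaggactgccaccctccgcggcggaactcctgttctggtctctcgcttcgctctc
Acta2: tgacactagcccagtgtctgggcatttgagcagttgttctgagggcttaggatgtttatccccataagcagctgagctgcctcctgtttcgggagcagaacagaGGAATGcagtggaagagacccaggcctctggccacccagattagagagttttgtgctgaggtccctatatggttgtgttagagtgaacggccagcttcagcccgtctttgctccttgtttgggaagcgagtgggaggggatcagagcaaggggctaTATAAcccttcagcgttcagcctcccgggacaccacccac
The positions are 101412153 to 101412452 on the plus strand for Krt7, 102004293 to 102004592 on the minus strand for Krt8 and 102027966 to 102028265 on the plus strand for Krt18, all on chromosome 15, and 34255324 to 34255623 on the minus strand of chromosome 19 for Acta2. Krt7 held 4 GC boxes and no TATA element, whereas Krt8 and Krt18 held no GC box and had 2 and 1 TATA matches. Acta2 held 1 TATA and 1 TEAD match. Of all 27025 RefSeq windows, 25.5% held a TATA element, 35.9% a GC box and 14.6% a TEAD element. For the 10980 windows of tested autosomal genes, the shares were 13.2% for a TATA element and 64% for a GC box. Among the windows of called genes outside chromosome 8 a TEAD element was in 14.7% of 374 lower genes and 8.71% of 241 higher genes, beside 12.2% of 10980 tested autosomal genes. In the same windows a TATA element was in 16.8% of the lower and 17% of the higher genes, and a GC box in 67.1 and 58.5%. A match describes the letters only.

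Krt18 stood at 36.1, 37.6 and 35.3 CPM in the V19 libraries and at 147, 169.9 and 179 CPM in the 1A libraries. Every V19 library was thus far under the lowest 1A library, and the difference was -2.18 ± 0.13 (adjusted p = 1.6e-18). Its partner Krt8 was at 69.2, 69.0 and 73.3 CPM in V19 and at 142, 149.7 and 177 CPM in 1A (-1.14 ± 0.12, adjusted p = 4.8e-10). Krt7 was at 3.91, 1.71 and 4.65 CPM in V19 against 14.8, 22.7 and 20.6 CPM in 1A, a 5.57-fold lower level. Krt19, on chromosome 11, was at 5.74, 4.18 and 7.93 CPM against 18.9, 23.5 and 29.4 CPM, 3.95-fold lower. The groups did not overlap for any of the 4 keratins. Genes were named for a lack of overlap or a small p-value, so this adds no support. Over all tested genes outside chromosome 8, 28.8% had no overlap between 3 and 3 libraries, 12.6% with V19 higher and 16.1% with V19 lower. In bulk RNA, fewer cells that express a gene and less RNA per cell cannot be told apart. All 4 were called in the same direction at 0, 12, 24 and 48 h as well, in other libraries of the same lines.

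The list of trophoblast genes holds these 4 keratins: of 17 tested, 5 fell and 1 rose. The list's median was -0.65 (-0.67 to -0.33 among the alternatives). Over all 14511 autosomal genes the median was 0.001, with 3.2% lower and 4.26% higher. Gata2, a transcription factor of the trophoblast and blood, was the fifth member that fell (-0.65 ± 0.16, adjusted p = 0.0052), a call lost without 1A replicate 1 and with the authors' normalized counts. The members that fell are 4 keratins and 1 transcription factor, and keratins are shared with other epithelia. Among 25 tested epithelial and mesenchymal genes 4 fell, 3 of them these keratins, and 1 rose. That gene was Cdh1, the gene of E-cadherin, which lies on chromosome 8 and was at 685, 681 and 668 CPM in V19 against 444, 441 and 419.9 CPM in 1A (0.64 ± 0.08, adjusted p = 1.4e-08). Gjb2, a gap junction protein of epithelia, was at 1.61, 0.761 and 2.24 CPM in V19 and at 5.89, 8.77 and 5.87 CPM in 1A. Anxa3, an annexin that binds membranes, was 4.56-fold lower in V19, with 5.74, 4.56 and 5.00 CPM against 18.8, 25.2 and 25.9 CPM.

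Genes of actin contractility, many of them targets of serum response factor or of YAP and TEAD, were lower in V19. Of 21 tested members, 10 fell and 0 rose, beside 3.2% lower and 4.26% higher over all autosomal genes tested. The median was -0.40 and 19 members lay under 0. Acta2, the smooth muscle actin gene (chromosome 19, 34217736 to 34232985, GRCm39), was at 8.5, 5.70 and 7.07 CPM in V19 and at 46.0, 50.2 and 63.0 CPM in 1A (-2.91 ± 0.18, adjusted p = 5.7e-18). Thbs1, which encodes the matrix protein thrombospondin, was at 3.22, 2.85 and 3.27 CPM against 11.3, 12.2 and 12.7 CPM. Acta2 and Thbs1 were thus 7.52 and 3.85-fold lower in V19. Their groups did not overlap, which the choice of named genes favoured. Anxa1 (-1.34 ± 0.15, adjusted p = 4.6e-09) and Tpm2, a tropomyosin that lines actin filaments (-1.36 ± 0.20, adjusted p = 2.4e-06), also fell. Acta1, the skeletal muscle actin gene, lies on chromosome 8 and was 1 of the 2 genes of that chromosome that were lower, at 1.38, 1.33 and 1.03 CPM against 3.66, 4.96 and 6.79 CPM. Actin genes are close paralogs, and how reads matching more than 1 of them were counted is not given in the sources used here. Vgll3, a cofactor of TEAD factors, was 4.25-fold lower, and Fosl2, a subunit of the factor AP-1, was 4.07-fold lower (adjusted p = 1.7e-07).

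**Figure D2:**
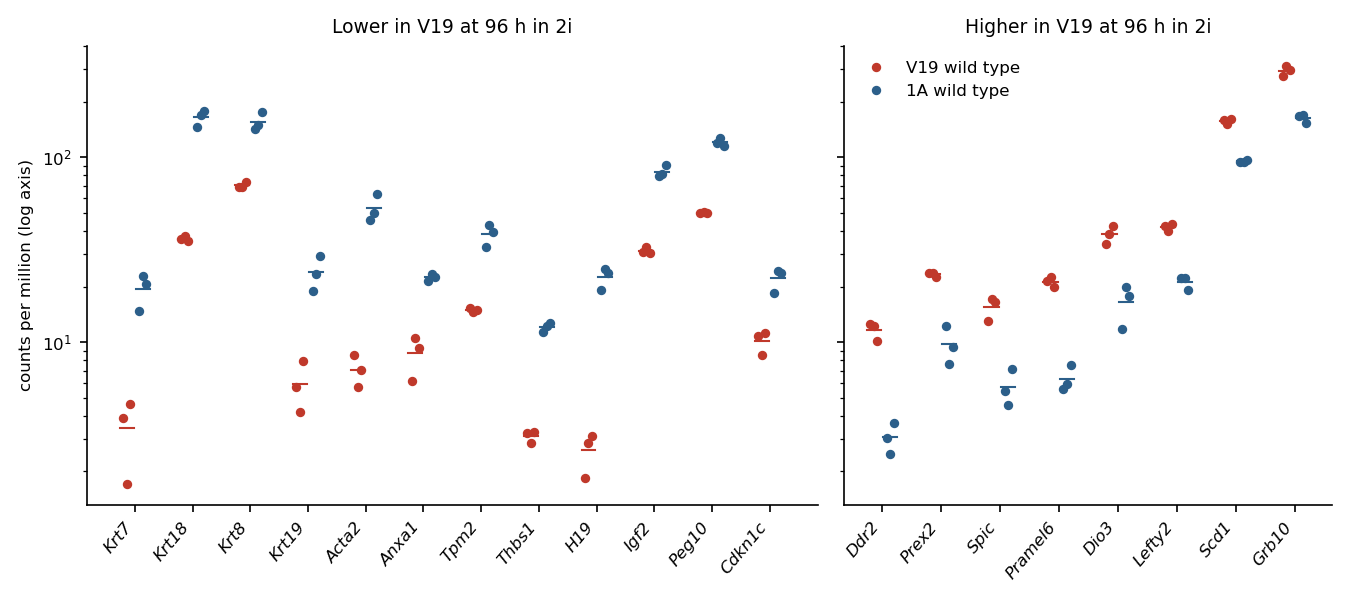
CPM (log axis) of 20 called genes in the 3 V19 (red) and 3 1A (blue) wild-type libraries at 96 h in 2i, with points for libraries and a line for the mean. The groups of points do not overlap for any gene shown, which the choice of called genes favoured. Krt18, for example, had 35.3 to 37.6 CPM in V19 and 147 to 179 CPM in 1A.

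Imprinted genes, which are expressed from only the maternal or only the paternal copy, fell more often than they rose. Of 51 tested members 10 fell and 4 rose, and the median was -0.06. Over all autosomal genes tested 3.2% were lower and 4.26% higher, with a median of 0.001. H19, a maternally expressed RNA (chromosome 7, 142129267 to 142131883, GRCm39), was at 1.84, 2.85 and 3.10 CPM in V19 and at 19.1, 25 and 23.7 CPM in 1A, 8.42-fold lower (-3.07 ± 0.22, adjusted p = 1.6e-15). Its neighbour Igf2, a paternally expressed growth factor (142204505 to 142220566), was at 30.6, 32.9 and 30.2 CPM in V19 and at 79.4, 80.9 and 91.0 CPM in 1A (-1.42 ± 0.14, adjusted p = 4.8e-11). H19, Igf2 and the antisense gene Igf2os were consecutive tested genes that all fell, and since a strand setting is not given in the sources used here, reads of Igf2 and Igf2os cannot be told apart. Cdkn1c, a cell cycle inhibitor of the same imprinted stretch of chromosome 7, was at 10.8, 8.56 and 11.2 CPM in V19 against 18.5, 24.4 and 23.7 CPM in 1A. Peg10, a paternally expressed gene derived from a retrotransposon, was at 49.9 to 50.8 CPM against 119.7, 128 and 115 CPM.

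Other imprinted genes were higher in V19. Grb10, an adaptor that dampens growth factor receptors, was at 277, 311 and 296 CPM in V19 and at 167, 169 and 153 CPM in 1A (0.85 ± 0.09, adjusted p = 1.4e-10). Dio3, a thyroid hormone deiodinase gene of the imprinted cluster on chromosome 12, was at 34.0, 38.4 and 42.7 CPM against 11.8, 19.8 and 17.8 CPM. Grb10 was called higher at all 5 times, and Dio3 at 4 of the 5 times.

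Targets of the tumour suppressor p53 were lower on balance: 9 of 24 tested fell, 2 rose, and the median was -0.28. Over all autosomal genes tested 3.2% were lower and 4.26% higher. Mdm2, the ubiquitin ligase that restrains p53, was at 137, 132 and 122 CPM in V19 and at 179.5, 181 and 170 CPM in 1A (-0.44 ± 0.09, adjusted p = 0.00062). Ccng1, another direct target, was at 223, 233 and 211 CPM against 308, 293 and 301 CPM. Plk2, a kinase that is induced by stress, fell by 0.73 ± 0.09 on the log2 scale (adjusted p = 1.1e-08), and Perp, a membrane protein of epithelial junctions, fell by 0.92 ± 0.16 (adjusted p = 3.8e-05). Cdkn1a, the gene of the cell cycle inhibitor p21, showed a smaller fall, with 85.5, 81.2 and 81.5 CPM in V19 and 102, 102 and 108 CPM in 1A. Each of these 5 genes had no overlap between the lines, as had 16.1% of all tested genes outside chromosome 8 with V19 lower. They were picked by p-value, so this adds no support.

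Metabolic lists gave small differences in both directions, and are given beside 3.2% lower and 4.26% higher over all autosomal genes tested. Of 29 glycolysis and glucose uptake genes 4 fell and 0 rose. Slc2a1, which encodes a glucose transporter, was at 174, 172 and 174 CPM in V19 against 262, 299.8 and 274 CPM in 1A (-0.69 ± 0.08, adjusted p = 1.1e-08), and Ldhb, a subunit of lactate dehydrogenase, was at 88.5, 83.1 and 81.2 CPM against 141, 156 and 169 CPM. The other members that fell, Pfkm and Pfkl, encode isoforms of phosphofructokinase, and the call of Pfkl was lost without V19 replicate 2. Among 27 genes of cholesterol and related lipid synthesis 5 rose and 1 fell (median 0.15). Scd1, a fatty acid desaturase, was at 159, 152 and 162 CPM in V19 and at 95, 94.4 and 96.7 CPM in 1A. In the Atf4 and amino acid list 6 of 26 rose and 1 fell (median 0.16), with Mthfd2, a mitochondrial enzyme of folate metabolism, at 0.53 ± 0.09 (adjusted p = 1.9e-05) and Psat1, an enzyme of serine synthesis, at 0.35 ± 0.06 (adjusted p = 0.00014). The member of that list that fell was Cbs, which makes cystathionine (-0.65 ± 0.10, adjusted p = 5.4e-06). By edgeR 0 members were called among 38 tested genes of oxidative phosphorylation and 34 of ribosome biogenesis and Myc targets, of which 3 and 5 passed at an unadjusted p under 0.05 in edgeR's test, while DESeq2 called 1 and 0.

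Enzymes that detoxify reactive compounds moved in both directions, 3 of 38 higher and 4 lower. Over all autosomal genes tested 4.26% were higher and 3.2% lower. Cyp1b1, a cytochrome P450 induced by the aryl hydrocarbon receptor, was at 1.15, 0.951 and 0.862 CPM in V19 against 5.73, 4.96 and 5.51 CPM in 1A. Srxn1, which repairs peroxiredoxins, was 1.68-fold lower, and Gpx2, a glutathione peroxidase, was at 11.7, 13.5 and 15.5 CPM against 4.46, 5.72 and 8.26 CPM (1.17 ± 0.23, adjusted p = 0.00037).

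Of 23 naive pluripotency genes tested 2 were higher and 2 lower, with a median of 0.07. Over all autosomal genes tested 4.26% were higher and 3.2% lower. Of the higher ones, Zfp42 lies on chromosome 8. At 0 h 7 of the 23 were higher and 1 lower, beside 5.13 and 5.35% over all autosomal genes. The 96 h response was called lower in V19 for 5 of the 23 and higher for 0. The lower share was 0.693% of tested genes outside chromosome 8 and 0.862% on it. Among the 5, Zfp42 lost this call in 15 of 22 alternatives and Gbx2 in 1 of 22. The response subtracts the same 0 h libraries, so it is not independent of the difference at 0 h. Gbx2, a homeobox factor downstream of LIF and STAT3, was at 23.9, 23 and 24.6 CPM in V19 and at 40.9, 42.9 and 44.6 CPM in 1A (-0.84 ± 0.12, adjusted p = 1.2e-06). Nanog was higher by 0.29 ± 0.08 (adjusted p = 0.022) and Sox2 was lower by 1.13-fold (adjusted p = 0.033), and the Nanog call was lost without V19 replicate 2 or 3 or 1A replicate 1 or 2 and with the authors' normalized counts, that of Sox2 without any 1 of the 6 libraries, and both without a filter on low counts. Of 24 tested formative and primed genes 4 rose and 3 fell. Otx2, a factor that drives exit from the naive state, was at 2.07, 5.51 and 3.79 CPM in V19 and between 0.955 and 1.47 CPM in 1A (1.70 ± 0.36, adjusted p = 0.0012). Lefty2, a secreted inhibitor and target of Nodal signalling, was at 42.3, 40.1 and 43.8 CPM against 22.3, 22.3 and 19.1 CPM. Fzd7, a Wnt receptor, and Dnmt3l, a cofactor of DNA methylation, were lower by 1.57 and 1.38-fold, the latter not called without 1A replicate 2.

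MEK inhibition blocks ERK signalling, whereas inhibition of GSK3 activates the Wnt and beta-catenin pathway. Beside 3.2% lower and 4.26% higher over all autosomal genes, 3 of 21 tested ERK targets fell and 0 rose, among them Dusp6, a phosphatase that turns ERK off, at 13.8, 14.1 and 11.9 CPM in V19 and 18.9, 20.6 and 20.4 CPM in 1A (-0.59 ± 0.14, adjusted p = 0.0026). The other ERK targets that fell, Fos and Phlda1, each lost their call in 4 of 16 alternatives. Of 19 Wnt and beta-catenin targets 3 fell and 0 rose. Among these 3, Tnfrsf19 lost its call in 6 of 16 alternatives. Notum, a secreted enzyme that inactivates Wnt, was at 34.9, 29.9 and 27.4 CPM against 44.2, 48.6 and 37.8 CPM, and Sp5, a direct target gene, was at -0.83 ± 0.23 (adjusted p = 0.018), a call lost without V19 replicate 2 or 3 or 1A replicate 1 or 2.

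Genes that mark rare cells resembling the embryo of the cleavage stage were higher in V19 but scarce. In this 2-cell-like list 7 of 14 tested members rose and 0 fell, and the median was 1.61. Over all autosomal genes tested 4.26% were higher and 3.2% lower. Usp17le, a member of the Usp17l family of deubiquitinases on chromosome 7, was at 3.45, 3.99 and 3.79 CPM in V19 and at 0, 0.381 and 0.184 CPM in 1A (4.26 ± 0.62, adjusted p = 2.2e-06). Its neighbours Usp17lb and Usp17la rose with it as 3 consecutive tested genes, but these copies are nearly identical, so that reads can be split among them. Tmem92 was at 0.689, 2.85 and 2.07 CPM against 0.318, 0.572 and 0.367 CPM, a call lost without V19 replicate 2 or 1A replicate 1. The summed level of the 14 genes was 43.6 to 53.1 CPM in V19 and 29.0 to 38.0 CPM in 1A.

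Among bivalent developmental regulators, whose promoters carry active and Polycomb marks together in stem cells, 6 of 77 rose and 1 fell, with a median of 0.06 whose sign changed among the alternatives (-0.06 to 0.19). Meis2, a homeobox gene, was at 23, 21.1 and 25.5 CPM in V19 and at 15.8, 14.7 and 15.6 CPM in 1A (0.60 ± 0.13, adjusted p = 0.0021). In the neuroectoderm list 2 of 14 fell and 1 rose. Called or not, 7 of these 14 genes lay above 0 and 7 under 0. The called riser was Sox1, which lies on chromosome 8 and also counts among the 6 bivalent genes that rose. Sox1 differed by 0.40 to 0.60 among the alternatives, and its call was lost with the authors' normalized counts. Beside both lists, 4.26% of all autosomal genes tested were higher and 3.2% lower. Sox11 and Sox21, factors of neural precursors, were lower by 1.88 and 1.87-fold, with Sox21 at 7.35, 8.56 and 7.93 CPM against 13.2, 16.6 and 15.1 CPM.

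**Figure D3:**
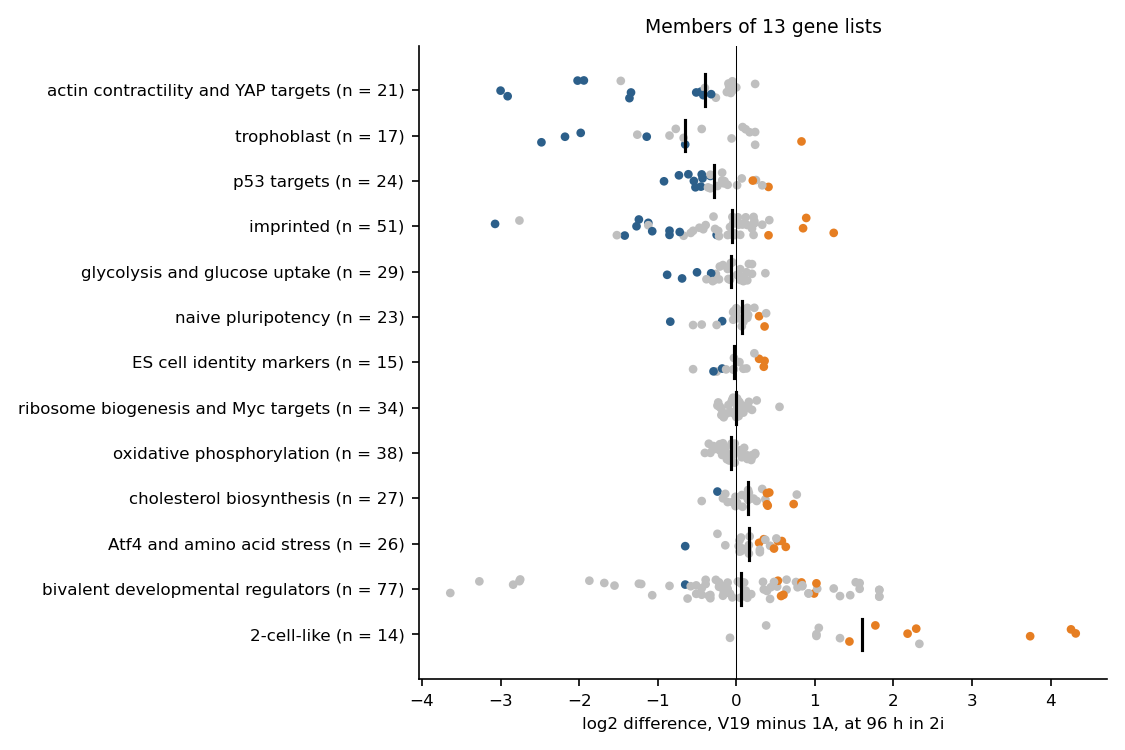
Log2 difference (V19 minus 1A at 96 h in 2i) of the tested members of 13 gene lists, with orange points for genes called higher, blue for genes called lower, grey for genes not called and a black bar for the list's median. The actin list has 10 blue points and no orange one, and the lists for oxidative phosphorylation and ribosome biogenesis have only grey points.

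The largest differences outside these lists included Otogl, which encodes an otogelin-like protein of the inner ear (chromosome 10, 107596391 to 107748240, GRCm39). No read of Otogl was counted in the 3 V19 libraries, against 144 reads in the 3 1A libraries (9.55, 9.15 and 6.61 CPM), so that its level was at least 43.6-fold lower in V19 with 3 counts over the group taken as the limit. Over all times Otogl was at 0 to 0.23 CPM in the 15 V19 libraries, at 4.16 to 9.70 CPM in the 15 1A wild-type libraries and at 4.20 to 12.3 CPM in the 30 knockout libraries.

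The gene with the largest rise outside chromosome 8 among those of at least 5 CPM was Ddr2, a collagen receptor kinase, at 12.6, 12.2 and 10.2 CPM in V19 and at 3.02, 2.48 and 3.67 CPM in 1A (1.91 ± 0.26, adjusted p = 3.8e-07). Ddr2, Prex2, a guanine nucleotide exchange factor for Rac, and Dynlt1b, a dynein light chain, were called higher at all 5 times. Pramel6, which belongs to a family of related genes on chromosome 2 and is expressed in the inner cell mass, was at 21.4, 22.4 and 20 CPM against 5.57, 5.91 and 7.53 CPM. Spic, a factor of the Ets family that is known in naive stem cells and macrophages, was at 13.1, 17.1 and 16.5 CPM against 5.41, 4.58 and 7.16 CPM. Slfn9, Cdhr1, Arfgef3, Lama4, Tle6 and Guca1a completed the 12 genes with the largest rises, between 2.59 and 3.61-fold.

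Neighbouring genes outside chromosome 8 were read in windows of 50 tested genes. The 3 windows with the most calls each held 10 called genes, on chromosomes 2, 4 and 6, but only that of chromosome 6 (56691720 to 72131555, GRCm39) held genes of 1 direction, with 10 lower and 0 higher and a median of -0.28. The window on chromosome 4 (133311684 to 135695489) held 8 lower and 2 higher genes, and that on chromosome 2 (91480463 to 104242595) held 6 and 4. On chromosome 6 the window lay in a stretch of 8 overlapping windows, 34897098 to 83483951, whose medians were all under -0.1. Of its 225 tested genes 23 were lower and 3 higher in V19 (11.6% called), 72.9% were under 0 and the median was -0.17. Of the other 483 tested genes of chromosome 6 20 were lower and 12 higher (6.63%), and 50.1% were under 0. The stretch was chosen for its low values at 96 h, so these counts describe it. In the libraries of the other times, which did not choose it, its median was -0.17 at 0 h, -0.11 at 12 h, -0.14 at 24 h and -0.12 at 48 h, whereas the rest of the chromosome lay between -0.02 and 0.03. The stretch held 1.42 to 1.447% of the autosomal counts outside chromosome 8 in V19 at 96 h and 1.584 to 1.597% in 1A. Over all times the ranges overlapped, with 1.297 to 1.447% in 15 V19 libraries, 1.441 to 1.597% in 15 1A wild-type libraries, 1.396 to 1.512% without Eed and 1.454 to 1.597% without Ezh2. Fkbp9, a protein folding enzyme of the endoplasmic reticulum, was at 192, 203 and 209.6 CPM in V19 and at 249, 259.5 and 242 CPM in 1A, and was lower at all 5 times. Gadd45a, a gene induced by DNA damage, was at 8.04, 8.18 and 9.65 CPM against 18.1, 19.8 and 21.5 CPM. Rmnd5a, Rnf103 and Chmp3 were 3 consecutive tested genes that fell, by 1.27, 1.80 and 1.21-fold, each with a call lost in 4 to 7 of 16 alternatives, among them those without V19 replicate 2 or 3 or 1A replicate 2.

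On chromosome 8 the shift ran along the whole chromosome. All 31 windows of 50 tested genes had a positive median, from 0.23 to 0.45, whereas the 520 windows on the other autosomes had medians from -0.28 to 0.13. Of the 812 genes 87.1% lay above 0, and the median corresponds to a 1.274-fold higher level. The share of autosomal counts that fell on chromosome 8 was 6.54% ± 0.0235 (SD, n = 3) in V19 and 5.07% ± 0.0257 (n = 3) in 1A, a ratio of 1.29. The exact two-sided permutation test over these 3 and 3 libraries gave p = 0.1, the smallest that it can give. Over all times the share was 6.355 to 6.598% in 15 V19 libraries, 4.937 to 5.136% in 15 1A wild-type libraries and 4.79 to 5.266% in 30 knockout libraries.

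**Figure D4:**
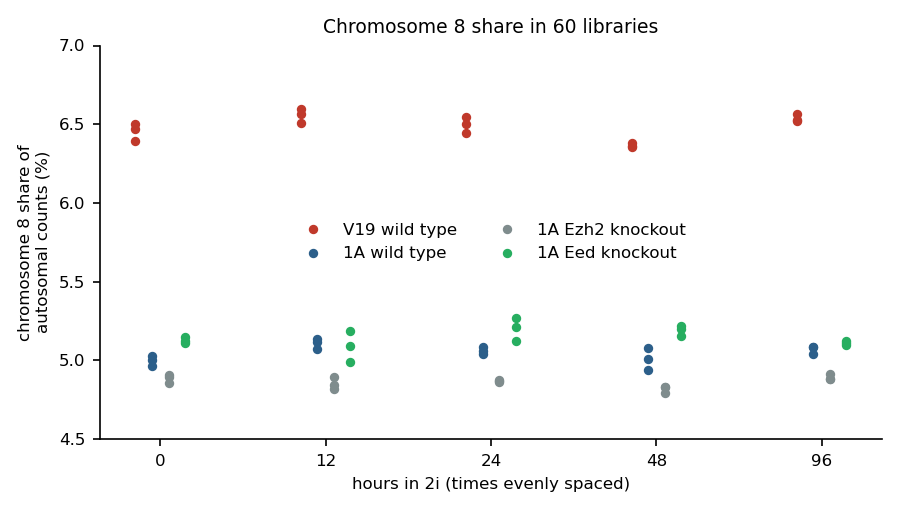
Chromosome 8 share of the autosomal counts (%) in each of the 60 libraries by hours in 2i, with times evenly spaced and an axis that does not start at 0. All V19 libraries lie between 6.355 and 6.598%, and the libraries of 1A and its 2 knockouts between 4.79 and 5.266%.

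The called genes of chromosome 8 mostly had modest differences, and 8 of them (0.985% of the 812 tested) were at least 2-fold higher. Dctd, which supplies thymidine nucleotides, was at 86.6, 75.5 and 76.7 CPM in V19 and at 42.8, 39.3 and 42.2 CPM in 1A (0.94 ± 0.11, adjusted p = 7.9e-09). Cpe, a carboxypeptidase of hormone processing, was at 26.4, 25.5 and 25 CPM against 10.7, 15.4 and 10.8 CPM, and Nat2, an acetyltransferase of foreign compounds, was at 5.28, 4.75 and 5.17 CPM against 1.59, 1.91 and 2.02 CPM. Several listed genes that rose lie on this chromosome. Zfp42, a marker of naive cells, was at 609, 628 and 657 CPM against 514, 486 and 476 CPM. Slc7a5, an amino acid transporter, was at 431, 426 and 426 CPM against 255, 301 and 274 CPM. Gsr, glutathione reductase, differed by 0.46 ± 0.06, Fgfr1 by 0.45 ± 0.10 and E2f4, a repressor of cell cycle genes, by 0.40 ± 0.07. Next to Acta1, the only other gene that was lower was Kbtbd11 (-0.63 ± 0.18, adjusted p = 0.018), at 14, 14.4 and 13.6 CPM against 22.4, 21.2 and 21.3 CPM, a call lost without V19 replicate 3 or 1A replicate 1 and with the authors' normalized counts.

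Before 2i, in serum and LIF at 0 h, the lines differed in 1159 genes outside chromosome 8 (8.46%), 390 higher and 769 lower. Of the 338 genes higher at 96 h 71 were also higher at 0 h, which is 21.0% of the first list and 18.2% of the second, and 7 were lower. Of the 463 genes lower at 96 h 152 were also lower at 0 h, 32.8 and 19.8% of these lists, and 7 were higher. Over all tested genes outside chromosome 8, 2.85% were higher and 5.61% lower at 0 h. At 12, 24 and 48 h 4.04, 5.59 and 2.96% were higher and 5.19, 6.48 and 3.65% lower. Called in the same direction at all 5 times were 29 of the 338 higher genes and 69 of the 463 lower genes, and on chromosome 8 129 of 280, where 43.7, 44.7, 41.4 and 36.3% of all tested genes were higher at 0, 12, 24 and 48 h. Over all autosomes 5.13% of the genes were higher and 5.35% lower at 0 h. The actin list fell in 16 of 21 cases at 0 h with a median of -0.84, the trophoblast list in 5 of 17 with a median of -0.43, and the imprinted list in 15 of 51 with 4 higher. At 0 h Krt18 was at 25.4, 34.0 and 28.7 CPM in V19 and at 113, 121 and 97.4 CPM in 1A, and Acta2 at 2.93, 1.64 and 1.49 CPM against 25.2, 23 and 22.6 CPM. In both lines Krt18 was highest at 48 h, with 95.3 ± 27.5 CPM in V19 and 343 ± 15.8 CPM in 1A (SD, n = 3). The 3 V19 libraries of 48 h deviated from their group mean by 0.282 to 0.437.

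**Figure D5:**
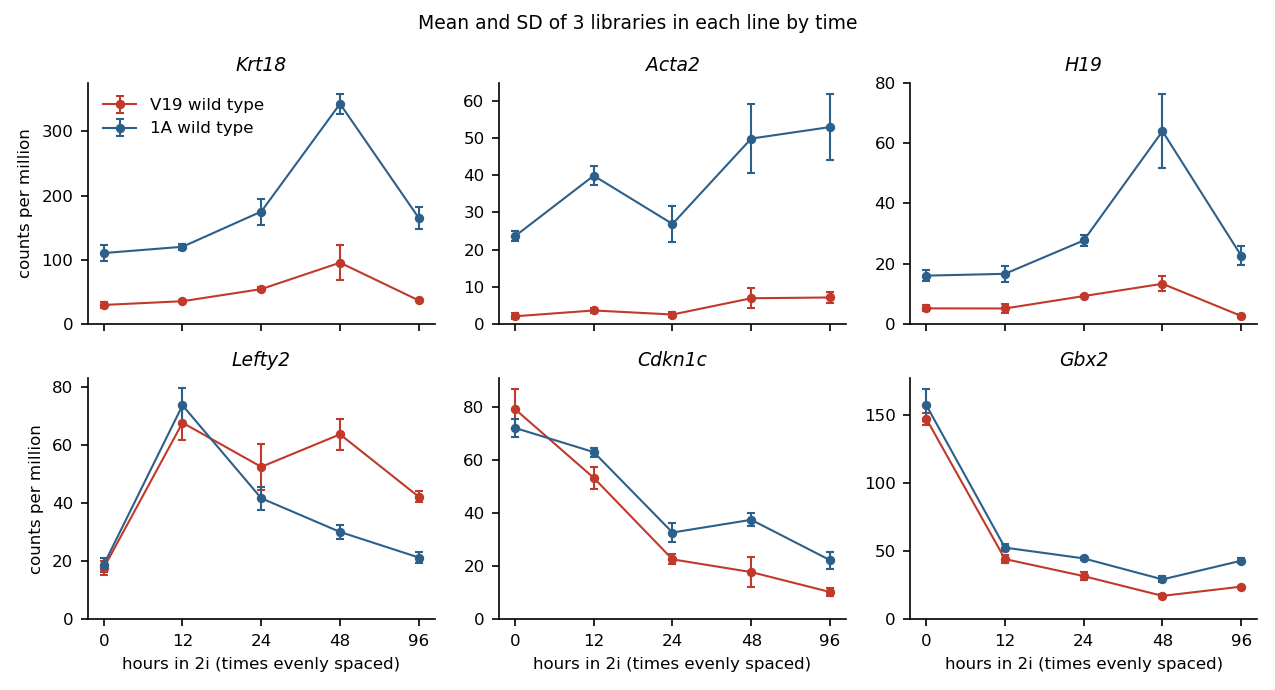
Mean level (CPM, bars are SD of 3 libraries) of 6 genes in V19 (red) and 1A (blue) wild type by hours in 2i, with times evenly spaced. Krt18, Acta2 and H19 were lower in V19 from 0 to 96 h, whereas Lefty2, Cdkn1c and Gbx2 had like levels at 0 h and differed at 96 h.

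The 2 lines also responded differently to 2i for 225 genes outside chromosome 8 (1.64%) by a test of the difference of the 96 h response, 130 with a higher value in V19 (0.949%) and 95 with a lower one (0.693%). The higher ones were 57.8% of the calls, but 45.8% with the authors' normalized counts. The count of 225 was 469 without the 6 libraries of a spread over 0.3 and 534 without the set picked by groups. Lefty2 was at 17.2, 15.4 and 20.2 CPM in V19 and at 18.7, 21.2 and 16.3 CPM in 1A at 0 h. It rose by 1.26 ± 0.13 in V19 and was at 0.17 ± 0.14 in 1A, and the responses differed by 1.09 ± 0.20 (adjusted p = 0.00062). Cdkn1c fell in both lines, by 2.95 ± 0.14 in V19 and 1.71 ± 0.13 in 1A on the log2 scale, from like levels of 73.0 to 87.7 and 68.7 to 75.5 CPM. Gbx2 likewise fell further in V19 (-2.62 ± 0.11) than in 1A (-1.87 ± 0.11), a difference not called with the authors' normalized counts. Liph, a lipase, fell in 1A from 25.8, 31.2 and 27 CPM to 10.8, 6.29 and 6.42 CPM, while it was at 13.7, 15.4 and 17.0 CPM in V19 at 0 h and at 14.7, 14.8 and 14.7 CPM at 96 h (difference 1.76 ± 0.22, adjusted p = 3.4e-07). Ephx2, an epoxide hydrolase, rose in both, by 1.07 ± 0.13 in V19 and by 2.56 ± 0.13 in 1A. On chromosome 8 12 of 812 responses differed (1.48%), 5 higher (0.616%) and 7 lower (0.862%), with a median of -0.053.

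Few genes separated the lines at every time. Outside chromosome 8, 4 genes were higher and 18 lower in all 15 V19 libraries than in all 15 1A wild-type libraries (0.0292 and 0.131% of the tested genes), and on chromosome 8 26 were higher (3.2%) and 0 lower (0.0%). Against the 45 libraries of 1A and its knockouts 0 genes were higher and 4 lower (0.0292%) outside chromosome 8, and 14 were higher (1.72%) on chromosome 8. The 4 genes, named after their values were seen, were Otogl, Tmem40, Csf1, a growth factor of macrophages, and Mrc1, the macrophage mannose receptor. Csf1 was at 0.211 to 2.28 CPM in V19, with 3.26 to 9.15 CPM for 1A wild type and 2.41 to 102 CPM for the knockouts, and Mrc1 at 0.213 to 2.12, 2.77 to 6.81 and 2.33 to 6.40 CPM. On chromosome 8 the 14 genes included Kars and Aars, enzymes that charge transfer RNA, and Mcm5, a subunit of the replicative helicase, also named after their values were seen. Mcm5 ranged from 821 to 1136 CPM in V19 and from 538 to 809 CPM across 1A wild type.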

How the data were processed

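RNA was poly(A)-enriched and sequenced as single 75-base reads. Per the submitters' processing notes, STAR 2.7.10b, featureCounts 2.0.3, MultiQC 1.14 and DESeq2 were used with GRCm39. The deposited raw counts per gene were used for all main values. The deposited RUV-normalized counts are a rounded score for 17754 genes whose settings are not given in the sources used here, and served as an alternative only (log2 of value + 1, limma 3.58.1). Strand and multi-mapping settings are not given in the sources used here. The members and gene lists were chosen with earlier results of these data known.

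Genes were filtered with filterByExpr (minimum count 10, minimum total 15), which kept 15083 of 50559 genes. All 60 libraries in 20 groups (2561169 to 11065948 counts, 40 residual degrees of freedom) were fitted with edgeR 4.0.16 in R 4.3.3, with TMM factors and quasi-likelihood tests, and p-values were adjusted by Benjamini-Hochberg over all 15083 genes. The p-values measure only the spread between these libraries. On simulated counts for 14970 genes the test recovered 43.3, 74.6 and 86.2% of genes changed 1.5, 2 and 4-fold, with 4 false among 139 calls. The simulation held few changed genes, picked at random, and no shift of chromosome 8. Its counts were drawn independently at the estimated spread, so it does not give the share of false calls in the real data.

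Named genes were those called at 96 h without overlap and with at least 5 CPM and the largest change (up to 12 a direction, 4 on chromosome 8), up to 4 called members of each list by p-value, up to 6 a direction for the difference of responses, and the called genes of the windows with the most calls. Symbols of unnamed gene models and pseudogenes were left out, and other genes are named where said. A gene that this rule names is not reported here. Alternatives were other scaling (RLE, TMM without chromosome 8), other filters, the replicate number as a block, a fit of only the compared groups, DESeq2 1.42.0, the RUV values, each library left out in turn and, added after the data were seen, 2 sets of libraries of other groups left out (those of a spread over 0.3, and a set picked by groups). Promoter windows come from RefSeq on GRCm38.p6.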

Additional observations from a re-analysis of the deposited data

Results flagged for a closer look

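For the genes given here the 96 h response to 2i differed between V19 and 1A by the interaction term of edgeR's fit (adjusted p under 0.05). The difference of responses, V19 minus 1A on the log2 scale, was positive for Lcp1 (2.54), Lama4 (2.12), Cdhr1 (2.09), Elmo1 (1.88), Liph (1.76), Arfgef3 (1.73), Lefty2 (1.09) and Cdh1 (0.52). Ifit2 had the value 5.30, which depends on the prior count because its 3 1A libraries held 0 counts at 96 h.

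It was negative for Vax2 (-2.72), Zfp951 (-2.36), Cyp11a1 (-2.11), Skida1 (-1.63), Ramp3 (-1.50), Ephx2 (-1.49), H19 (-1.43), Sox21 (-1.36), Extl1 (-1.35), Sox1 (-1.27), Cdkn1c (-1.25), Notum (-0.90), Gadd45a (-0.84), Ldhb (-0.80), Gbx2 (-0.75), Cbs (-0.67) and Zfp42 (-0.30). H19 rose by 0.51 ± 0.16 in 1A and fell by 0.92 ± 0.28 in V19. Of the differences given here 10 lost their call in at least 1 alternative. Zfp42 lost it in 15 of 22, Ifit2 in 8 of 20, Arfgef3 in 7, Vax2 and Gadd45a in 6, Extl1 in 5, Cyp11a1 and Skida1 in 2 and Lama4 and Gbx2 in 1 of 22. The losses of Vax2, Gadd45a, Arfgef3, Cyp11a1, Skida1 and Lama4 each came from leaving out 1 library, among them 1A replicate 2 of 96 h for the first 4 and 1A replicate 1 of 0 h for Lama4. For Skida1 the libraries were V19 replicate 1 and 1A replicate 2 of 0 h.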

How the results depend on the processing

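None of the 133 named genes called at 96 h changed direction in an alternative, but the medians of 9 of 33 gene lists changed sign, such as fibroblast and feeder markers (-0.39 to 0.11) and neuroectoderm (-0.07 to 0.30). The 801 genes called at 96 h outside chromosome 8 became 1785 when the 2 groups were fitted alone, 1364 without the 6 libraries of a spread over 0.3, 1445 without the set picked by groups, and 448 to 647 when 1 library was left out. The 1159 genes at 0 h became 1877 alone and 862 to 890 with 1 library left out. The 225 differing responses became 928 alone, 469 without the 6 libraries, 534 without that set and 152 to 191 with 1 library left out. The 282 genes of chromosome 8 became 212 to 230 with 1 library left out, and the difference of its share was 1.45 to 1.48 percentage points. The cause of these shifts was not tested. With the replicate number as a replicate block, 786 genes were called at 96 h outside chromosome 8 (772 of the 801 among them), 286 on chromosome 8, 1144 at 0 h and 226 responses. Same-numbered libraries of the lines correlated by 0.0774, 0.00128 and 0.0492 at 96 h, so the numbers were not taken as pairs, and V19 replicate 2 correlated best with 1A replicate 3 (0.0398). Of these 133 genes 49 lost their call at 96 h in at least 1 alternative. With 4310359 to 6125140 counts a library, genes of a few counts were not resolved.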
